A study of Mus musculus with 50 samples.

Results

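Chromosome 4 held 778 of the 12919 variants that 2 or more IL6Myc tumours shared, and these 778 variants are described here. They were chosen by their call counts: a variant was included when the deposited table listed it on chromosome 4 with a single alternate allele and a count of at least 2 tumours. Of the 778, 211 lay between 145 and 148 Mb, a cluster of related predicted genes that is treated apart, and 567 lay elsewhere on the chromosome. The tumours are labelled malignant plasma cells of mesenteric lymph nodes from IL6Myc mice, each from its own animal. IL6Myc is a transgenic myeloma model whose name joins interleukin 6 and Myc. The labels do not give the age of the mice, the purity of the tumours, the promoters of the transgenes or the parent strains. Exomes of 44 tumours were used, named below by number, and tumour 4 and the 5 wild-type Balb/c kidneys were not analysed here. The titles fall into ranges of numbers, 1601-1628 (22 tumours, numbers 24 to 45), 1501-1592 (18 tumours, numbers 6 to 23) and 1199-1293 (4 tumours, numbers 1, 2, 3 and 5). The labels do not say what the ranges stand for.

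An inbred strain carries the same allele on both copies of a chromosome. Where a stretch from another strain has been crossed in, many neighbouring variants travel together as a haplotype, and a mouse with 1 copy of it shows each variant at a read share near that of the other allele. Chromosome 4 of the mouse is known for the loci that make BALB/c mice susceptible to plasma cell tumours, among them the Cdkn2a region and the distal Mtor region. Near its distal end it also carries a large family of KRAB zinc finger genes, encoding proteins that bind DNA and silence transposable elements, whose copies resemble each other so closely that short reads can be placed on the wrong copy.

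The value in each tumour is the read share, the percent of reads at a site that carry the alternate allele. The depth is unknown, so no interval can be set around a single read share, and a variant that was not called may have had too few reads. The number of calls over the whole table ran from 1940 to 3579 per tumour in those titled 1601-1628, from 1898 to 5662 in 1501-1592 and from 2508 to 5929 in 1199-1293. The medians were 2329.5, 4499.5 and 4275.5 in that order. Whether these totals bear on the carriage compared below was not tested. With the kidneys not analysed here, an inherited variant cannot be told from an acquired one.

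Short sequences around 4 sites show the kinds of change described below. Each is given on the forward strand from RefSeq (GRCm38.p6, the assembly that mm10 names) with the changed base in capitals, first as in the tumours with the variant and then as in the assembly. The first lies in the coding start of Ifnk, an interferon, at chr4:35152077-35152097. The next lie just upstream of Orm2, a gene for an acute-phase plasma protein, at chr4:63362420-63362440, and of Aknaos, the antisense gene of Akna, at chr4:63377090-63377110. These 3 belong to a block of variants that were called together in a minority of tumours. The last lies upstream of the major urinary protein pseudogene Mup-ps12, at chr4:61534280-61534300, and was called in 43 of 44 tumours.
Ifnk with the variant: actccaaagtAtttatggctg
Ifnk in the assembly: actccaaagtTtttatggctg
Orm2 with the variant: aaagccactgCaccctccatc
Orm2 in the assembly: aaagccactgTaccctccatc
Aknaos with the variant: cgcatgtgcaTgtgggcacgc
Aknaos in the assembly: cgcatgtgcaCgtgggcacgc
Mup-ps12 with the variant: ccatgcagaaCaagttaggtc
Mup-ps12 in the assembly: ccatgcagaaGaagttaggtc

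The Ifnk change is the base behind p.Phe5Tyr. The Orm2 variant was called in 9 tumours at 38.5% to 61.8%, and the Aknaos one, which the table lists as intronic in Akna, in the same 9 at 22.2% to 66.7%. At the Aknaos site the assembly has the letters CACGTG, the E-box that Myc and related factors bind, and the variant removes them. This motif reads the same on both strands, and it occurs in 7.15% of the 32851 RefSeq promoter windows of 300 bases. Among the 16 shared single-base variants that fell in such a window on chromosome 4, 1 changed a base within CACGTG. The 7.15% counts windows that hold the motif anywhere, so it is not a baseline for 1 of 16. The motif was looked for after the sequences had been seen, and a match to its letters is not a measure of binding.

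Outside the cluster the shared variants were gathered on the proximal part of the chromosome. Joining neighbours less than 2 Mb apart gave 11 segments of at least 5 variants, with 540 variants in all and 27 left isolated. Segment 1 (chr4:10849093-13881025) held 76 variants, segment 2 (chr4:31991116-48307713) held 310, and segment 3 (chr4:59064411-65613813) held 89. The other 8 segments held between 5 and 18 variants each. Most variants outside the cluster, 386 of 567, were called in 6 to 22 tumours, whereas 173 were called in 2 to 5 and 8 in over 22.

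A tumour was counted as a carrier of a segment when at least 50% of its variants were called. Segment 1 was carried by 10 tumours, segment 2 by 9 and segment 3 by 9. None of the 22 tumours titled 1601-1628 carried any of them. Among the 18 tumours titled 1501-1592, 10 carried segment 1, 9 carried segment 2 and 8 carried segment 3. The only carrier titled 1199-1293 was tumour 2, which carried segment 3. By Fisher's exact test (two-sided) of 1601-1628 against 1501-1592, with Benjamini-Hochberg adjustment over the 8 segments with a carrier in either range, the adjusted p was 0.000413 for segment 1, 0.000711 for segment 2 and 0.00152 for segment 3. These were the 3 segments called, 37.5% of those tested. The other 5 tested had adjusted p from 0.656 to 1 and at most 3 carriers. So few carriers could not pass this test however they fell, so these 5 say nothing about a difference in carriage.

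The carriers of the 3 segments were largely the same animals. Tumours 6, 7, 8, 9, 11, 13, 14 and 18 carried all 3. To follow this block of variants, the 364 variants of these segments that were called in 6 to 12 tumours are called linked variants here, a rule set after the data had been seen. They ran from 11051280 to 65396823, over 54.3 Mb. In 12 tumours at least 20 of them were called, 11 titled 1501-1592 and 1 titled 1199-1293. In each of the other 32 tumours at most 2 were called. The plot of linked variants by tumour shows the carriers as rows filled from end to end and the partial carriers as rows filled on one side.

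**Figure D1:**
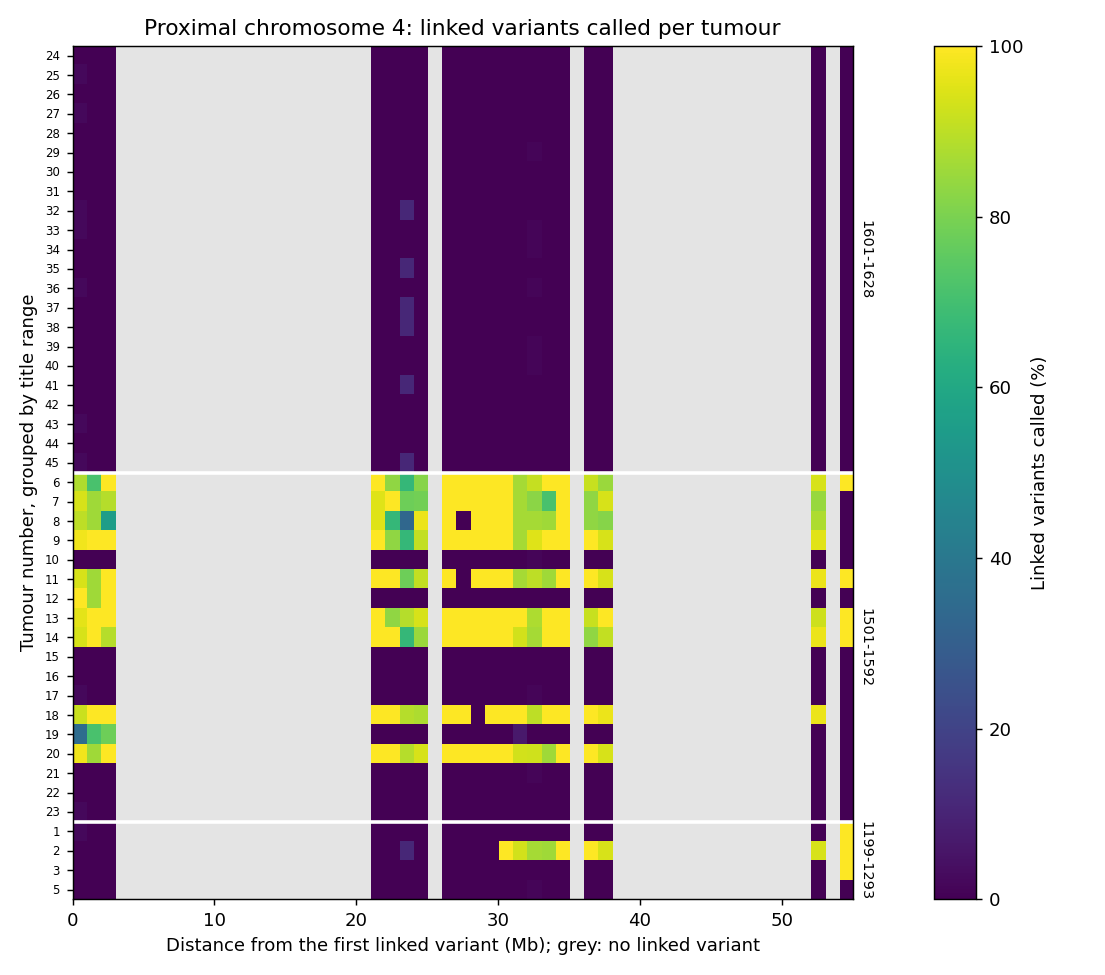
Percent of the linked variants of each 1 Mb bin that were called, for 44 tumours (rows, by title range) against the distance in Mb from the first linked variant. Grey columns hold no linked variant; 8 tumours titled 1501-1592 are filled across nearly the whole stretch, tumours 2, 12, 19 and 20 in part, and the 22 tumours titled 1601-1628 are nearly empty.

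The 8 tumours with all 3 segments had between 85.7% and 94.5% of the linked variants called. The other 4 carried pieces. Tumour 12 had 66 of the 67 linked variants of segment 1 and none beyond 13881025, where the next linked variant is at 32669074. Tumour 20 was filled as far as 48307713 and had none of those of segment 3, which begin at 63225427. Tumour 2 began within segment 2, between 40475597 and 41725951, and was filled from there to 65396823 with 199 of 218 variants called. Tumour 19 carried the shortest piece, from 11544936, with 28 of 30 linked variants called as far as 13866010. It missed those at 13866150 and 13866157 and had further calls at 13875517 and at 13881025, the last linked variant of segment 1. The gene content of these pieces therefore differed. Tumour 12 had the segment 1 genes only and tumour 19 those from 11544936 on, whereas tumour 2 had the distal genes of segment 2 and those of segment 3. Lone linked calls elsewhere were in Gm12429 for tumour 19, at 10.5%, and in Mob3b for tumour 2, at 5.19%.

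The linked variants had similar median levels in every carrier. The median read share per tumour ran from 46.5% to 49.7%, with a mean of 48.1% ± 0.733 (SD, n = 12). Of 3235 linked calls in the 12 carriers, 93.3% lay between 30% and 70%, and 12 calls (0.371%) were at 90% or more. Of these 12, 10 came from 1 linked variant, an intronic deletion in Fam221b at 43663994 that was read at 100% in all 10 tumours with it. By segment, medians were taken over all variants of the segment, linked or not. The mean of the carriers' medians was 48.3% ± 1.29 for segment 1 (SD, n = 10), 47.5% ± 0.987 for segment 2 (SD, n = 9) and 48.2% ± 1.18 for segment 3 (SD, n = 9). These segments differed by less than the spread between tumours.

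The linked variants were not spread evenly over the segments. By their rule they lie within the 3 segments. The 18.1 Mb between segments 1 and 2, with 43 protein-coding genes, held 7 shared variants of any kind, and the 10.8 Mb between segments 2 and 3, with 58 protein-coding genes, held 4. Segment 1 had 3.19 linked variants per protein-coding gene, segment 2 had 1.34 and segment 3 had 1. The fullest bin of 1 Mb held 81, in and around Rusc2, Cd72, Reck and the olfactory receptor genes Olfr156 and Olfr159. A bin with Akna, Col27a1, the Orm genes, Tnc, Tnfsf8, Tnfsf15 and Whrn held 65, and the first bin, with 1110037F02Rik and Rad54b, held 51.

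Single variants were also tested for carriage, by Fisher's exact test (two-sided) of 1601-1628 against 1501-1592 with Benjamini-Hochberg adjustment over all 12919 shared variants of the table. Of all shared variants, 18.3% passed at an adjusted p under 0.05, and 18.2% passed with fewer carriers titled 1601-1628. On chromosome 4, 360 of 778 passed, all with fewer carriers titled 1601-1628, against 2009 of 12141 (16.5%) on the other chromosomes. The linked variants made up 354 of the 360. They were called in the same tumours, so they are not 354 independent observations. In the cluster 1 of 211 passed, and among the 203 variants elsewhere that were not linked 5 passed. A variant called in 2 to 5 tumours could not pass, whichever tumours had it. This held for 85 of the 211 and 173 of the 203, and the 25 cluster variants called in all 44 tumours could not differ. The linked variants were chosen within 6 to 12 tumours, so these counts do not compare the sets.

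Calls of linked variants in the other 32 tumours came from 4 variants. An intergenic variant at 11178665 was called in 12 tumours at 10% to 36.4%, an Olfr159 synonymous variant at 43770722 in 11 tumours at 3.05% to 6.49%, a Zfp292 intronic deletion at 34816101 in 6 tumours that were all titled 1601-1628, and an Astn2 intronic deletion at 65396823 in 7 tumours that included 1 and 3. The Astn2 deletion, the last linked variant, was called in 5 block carriers, so the distal end of the block at 65396823 rests on a variant that tumours without the block also had.

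The shared variants of chromosome 4 included 59 that alter a protein, in 36 genes. The linked block held 33 of them in 19 genes, together with 78 synonymous and 181 intronic variants. In segment 1 the genes were 1110037F02Rik (Virma in RefSeq), a subunit of the complex that methylates adenines of messenger RNA, Rad54b, a motor protein of homologous recombination, and Tmem67, a protein of the ciliary transition zone. Virma carried p.Gly913Ala in 8 tumours, p.Ala1570Thr in 10 and p.Ser1632Thr in 11. Rad54b carried p.Thr433Arg in 10 tumours, at 36.8% to 62.7% with a median of 46.5%, and p.Val824Ile in 11, at 27.3% to 62.5% with a median of 48.7%. Tmem67 p.Ser633Thr was called in 11. Each of these genes had a change in 11 of 44 tumours (25%, with an exact 95% interval of 13.2 to 40.3% for counting error only), and all 11 were titled 1501-1592.

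Segments 2 and 3 held more of the altered genes. Cd72 encodes an inhibitory co-receptor of B cells. Its p.Gly251Arg was called in 0 of 22 tumours titled 1601-1628, in 9 of 18 titled 1501-1592 at 43.1% to 58.1% (median 51.6%), and in 1 of 4 titled 1199-1293, at 54.2%. Cd72 held 10 shared variants in all, 6 of them linked. Ifnk, a type I interferon, carried p.Phe5Tyr in 9 tumours and p.Arg71Lys in 8, with medians of 47.4% and 48.1%. Akna, an AT-hook protein, carried p.Pro1211Leu, p.Pro1166Ser and p.Lys712Glu in 8 or 9 tumours each and p.Arg558Gln in 2. Of the acute-phase genes, Orm1 carried p.Arg157Gln in 9 tumours, and Orm3 carried p.Leu45Phe and p.Val48Ala in 8 each. Of 24 B cell and cytokine genes listed on chromosome 4, Cd72 and Ccl27a, a chemokine gene, held a shared variant. Among the 24, Cd72 alone held one that alters a protein. The list does not cover all such genes. It left out Ifnk, described above, and the cytokine genes Tnfsf8 and Tnfsf15, which also held linked variants. Over all 1328 protein-coding genes of chromosome 4, 147 (11.1%) held a shared variant and 35 (2.64%) one that alters a protein.

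Further genes of the block are given with their known roles. Rusc2, an adaptor of vesicle traffic, carried 4 missense variants, with 10 tumours altered. Sec61b, a subunit of the channel through which secreted proteins enter the endoplasmic reticulum, carried p.Ala83Ser in 8 tumours at 36.4% to 48.5%. Invs, a ciliary protein that sets left and right, carried p.Arg46Gln in 10 tumours. Whrn, a scaffold of hair cells of the inner ear, carried p.Arg893Gln in 9, and the fibrillar collagen gene Col27a1 carried p.Asn451Asp and p.Pro468Leu in 9. The olfactory receptors Olfr159 and Olfr156 were altered in 10 tumours each, Frmpd1 in 10, and Fam166b p.Pro201Ser was called in 9. In single tumours all of these variants were read between 24.4% and 78.4%. Pigo, an enzyme of the glycolipid anchor of surface proteins, lay in segment 2 too, with p.Met857Leu in 5 tumours titled 1501-1592 and p.Gly230Ser in 2 titled 1199-1293, so neither met the rule for linked variants.

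Single places within segment 2 departed from the common level, among them the Fam221b deletion at 100% and 3 intronic variants of 3110043O21Rik, at 35202444, 35202479 and 35202773, with medians of 26.8%, 31.6% and 6.28%. In Gm12429 (Fam205a1 in RefSeq) and its neighbour BC049635, between 42848381 and 42873910, 15 linked variants had per-tumour medians of 37.5% to 46.1%, with a mean of 42.5% ± 3.19 (SD, n = 10). Over the other linked variants the same 10 tumours had medians of 46.55% to 48.7% and a mean of 48.0% ± 0.612. The value pooled over both genes was lower in 10 of 10 tumours. The genes were not alike. Over all calls of their shared variants, the median was 21.7% in Gm12429 and 45.7% in BC049635. In BC049635 the medians of single variants ran from 31.9% to 55.6%, so the lower level is not a trait of each of its variants. The place was chosen after its values had been seen, so the difference was not tested. Single changes in Gm12429 spanned a wide range. Its p.Phe667Val was read at a median of 47.1% in 10 tumours, p.Glu121Lys at 20.5% in 9, p.Ile21Phe at 13.3% in 4, p.His582Tyr at 8.38% in 8 and p.Cys32Arg at 7.95% in 3. BC049635 carried an in-frame deletion of 33 bases, p.Gly173_Asn183del, in 9 tumours at a median of 31.9%.

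**Figure D2:**
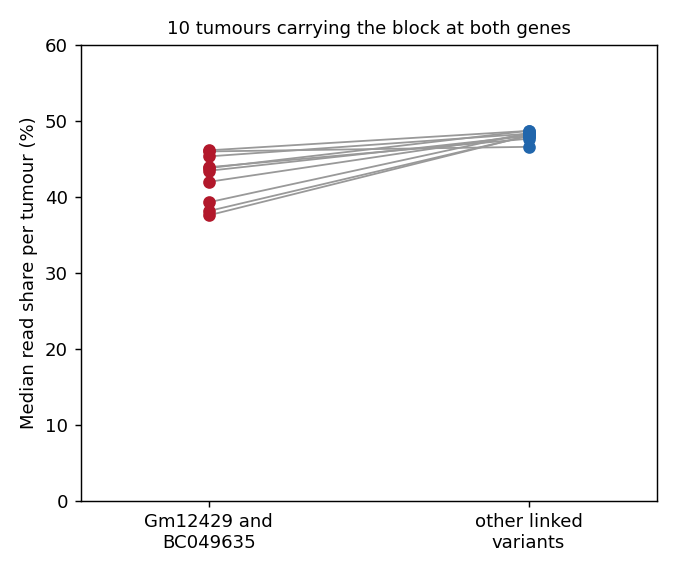
Median read share (percent) of each of 10 tumours over the 15 linked variants of Gm12429 and BC049635 (left) and over the other linked variants (right), with a line joining the values of a tumour. All 10 lines rise to the right, and the right-hand points lie close together between 46.55% and 48.7%. The left-hand values pool both genes, which differed in level.

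The 8 variants outside the cluster that were called in over 22 tumours did not follow the block, and each stood at least 2.71 Mb from the next of them. Orc3 p.Met228Ile, in a subunit of the origin recognition complex that licenses DNA replication, was called in 22 of 22 tumours titled 1601-1628 at 21.4% to 64.1% (median 45.5%). It was called in 15 of 18 titled 1501-1592 at 33.3% to 67.65% (median 47.6%), and in 0 of 4 titled 1199-1293. The 7 tumours without it were 1, 2, 3, 5, 6, 7 and 8. An intronic variant of B4galt1, a galactosyltransferase gene, was called in 42 tumours and was missing in 1 and 2. A synonymous change in Trim32, a ubiquitin ligase, was called in 41 and was missing in 1, 2 and 3. An intergenic variant at 111663033 was called in 43 and was missing in 2. These 4 had medians of 45.8%, 47.6%, 51.1% and 46.9%, and none reached 90% in any tumour. The Mup-ps12 upstream variant shown above had a median of 22.4%, with a range of 11.9% to 27.9%, so its highest tumour lay below the lowest tumour of B4galt1 at 30%. The other 3 were insertions or deletions, in or near Gm11487 (32 tumours) and Sh3d21 (37) and at 128868161 (25).

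Beyond segment 3 and outside the cluster, 8 protein-altering variants remained, and 2 were common. Tmem82 p.Pro344Leu, at 141614621, was called in 18 tumours. It was found in 2 of 22 tumours titled 1601-1628, at 49.25% and 46.8%, in 14 of 18 titled 1501-1592, at 34% to 100% with a median of 53.0%, and in 2 of 4 titled 1199-1293, at 50.9% and 98.3%. Fisher's exact test of 1601-1628 against 1501-1592, adjusted over all shared variants, gave p = 0.000393. Its read share fell at separate levels. In 5 tumours (2, 7, 8, 9 and 18) it was between 96.15% and 100%, and in the other 13 it was between 34% and 54.7%. Those 5 tumours all carried segment 3, where the 9 carriers had medians of 46.9% to 50.0%.

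Nphp4 p.Gly899Glu, in a ciliary transition zone protein, lay distal of the cluster at 152554609. It was called in 13 tumours, with 0 of 22 titled 1601-1628, 10 of 18 titled 1501-1592 at 18.2% to 62.5% (median 48.1%), and 3 of 4 titled 1199-1293 at 66.7%, 50.0% and 52.9%. The same test gave an adjusted p of 0.000693. Of its 13 carriers, 12 also carried the Tmem82 change, and tumour 3 did not. Some of the others were rare and read at low shares. Ppcs p.Ala14Pro was called in 6 tumours at 15.4% to 19.05%, Calr4 p.Ser12Leufs*25 in 3 with a median of 5.97%, and the Hnrnpr pair p.Arg555Cys and p.Arg558Leu in 3 and 2.

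**Figure D3:**
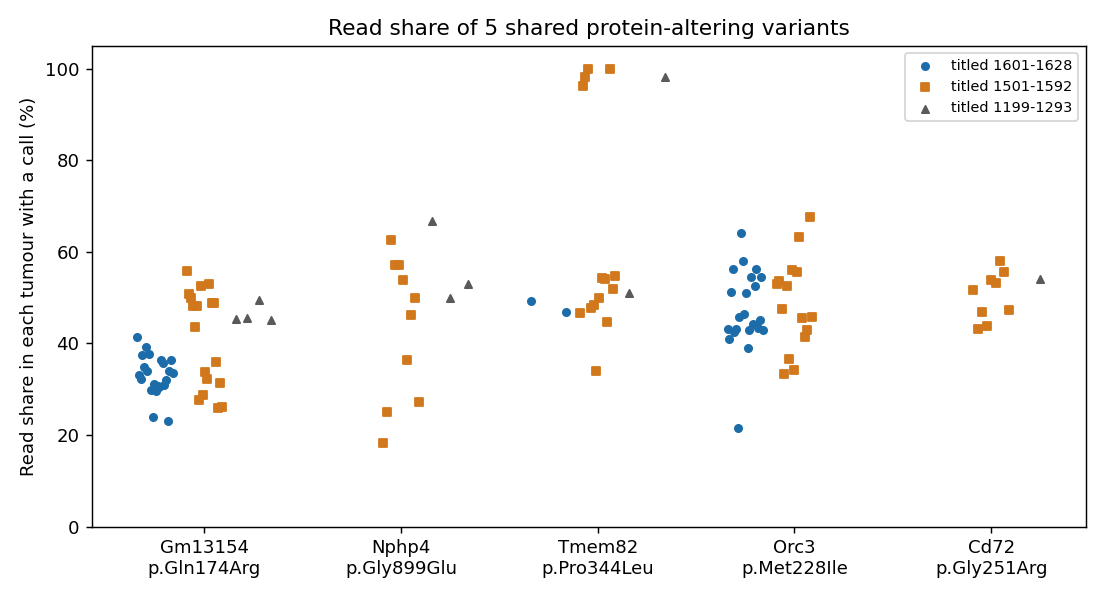
Read share (percent) in each tumour with a call, for 5 shared protein-altering variants, with the title ranges 1601-1628, 1501-1592 and 1199-1293 side by side. Tmem82 has 5 tumours between 96.15% and 100% and 13 between 34% and 54.7%; Nphp4 and Cd72 have no call titled 1601-1628, and Gm13154 has its lower values there.

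The plasma cell tumour susceptibility genes were looked up one by one. Cdkn2a (chr4:89274473-89294619), which encodes the cell cycle inhibitors p16 and p19Arf, and its neighbour Cdkn2b (chr4:89306289-89311032) held 0 shared and 0 private variants, a private variant being one called in a single tumour. The nearest shared variants were 2.72 Mb and 2.75 Mb away. Mtor (chr4:148448582-148557685), the kinase of the growth pathway that rapamycin inhibits, also held 0 of either kind, with the nearest shared variant 0.377 Mb away. A count of 0 in 44 tumours allows a share of up to 6.82% by the rule of 3 counts, or 8.04% as the upper end of the exact 95% interval, for counting error only, and whether these genes were covered by reads is unknown. In 11.5 Mb around Cdkn2a, 2 shared and 12 private variants were listed over 67 protein-coding genes. Distal of the cluster, 13 shared and 52 private variants were listed over 143 protein-coding genes, and Nphp4 was the only gene there with a shared variant that alters a protein. Of 26 listed susceptibility and tumour suppressor genes, 1 held a shared variant, an intronic one of Camta1 in 2 tumours, and 0 held one that alters a protein, beside the 11.1% and 2.64% given above for all protein-coding genes of chromosome 4.

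The cluster had a different make-up from the rest of the chromosome. Its 211 variants lay between 145404153 and 147894039, with the nearest shared variants outside at 144617750 and 148068274. In RefSeq this window holds 92 genes, 28 of them protein-coding, of which 16 are named Zfp, and 56 (60.9%) are pseudogenes, against 20.3% pseudogenes over chromosome 4. All 19 gene symbols that the deposited table uses in the cluster matched RefSeq, where Gm13154 is Zfp985, 2610305D13Rik is Zfp979 and Gm13157 is Zfp984. The table's annotation and RefSeq did not place all of them alike. Of 156 pairs of a gene and a variant, 46 lay over 5 kb outside the RefSeq gene, among them 14 of 14 for Gm13139, by up to 1351 kb, and 32 of 36 for Gm13152.

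Carriage and annotation differed together. In the cluster 72 variants were called in over 22 tumours and 25 in all 44, whereas outside it 8 were called in over 22 and 0 in all 44. In the cluster 36% of variants were intergenic and 3.79% altered a protein, against 11.8% and 8.99% outside. Missense and synonymous variants numbered 7 and 5 in the cluster, and 46 and 90 outside. Transitions made up 61.7% of 180 SNVs in the cluster and 70.3% of 461 outside. Variants are linked, so these shares carry no test.

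Read shares in the cluster were lower and more scattered than outside. The median read share was under 20% for 70 variants (33.2%) of the cluster, against 42 (7.41%) outside. It lay between 40% and 60% for 18.5% of the cluster's variants, against 75% outside. It was 90% or more for 1 variant of the cluster, against 29 outside. Of the 85 cluster variants in 2 to 5 tumours, 39 had a median under 20%. Uneven read shares are what drew this window apart, so these values describe it and test nothing.

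The 25 variants called in every tumour ranged from a median of 13%, at 147278938, to 58.5%, at an intergenic insertion of 15 bases after position 147086367. The deposited table lists 147278938 as intronic in Gm13152, but it lies outside that gene's RefSeq span. The insertion, with the added bases in capitals after the base that precedes them, reads as follows on the forward strand of the deposited table and was read at 30.6% to 77.2%.
Intergenic insertion: cTCTTCCTCCTCTTCA

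Over all 211 variants the per-tumour median averaged 26.9% ± 1.24 in tumours titled 1601-1628 (SD, n = 22), 33.3% ± 7.24 in 1501-1592 (SD, n = 18) and 40.2% ± 1.34 in 1199-1293 (SD, n = 4). Over the 25 variants called in every tumour the tumours took separate levels. The per-tumour median was 23.5% to 34.6% in tumours titled 1601-1628, with a mean of 29.5% ± 2.73 (SD, n = 22), 24% to 45.45% in 1501-1592, with a mean of 36.2% ± 8.21 (SD, n = 18), and 42.65% to 47.3% in 1199-1293, with a mean of 44.7% ± 2.03 (SD, n = 4). No tumour lay between 34.6% and 40.5%. This gap was found in the same values, so a split at it describes them and tests nothing. Above that gap were 0 of 22 tumours titled 1601-1628, 10 of 18 titled 1501-1592 and 4 of 4 titled 1199-1293. Tumours titled 1501-1592 thus covered both levels, and those of the other ranges did not overlap each other.

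**Figure D4:**
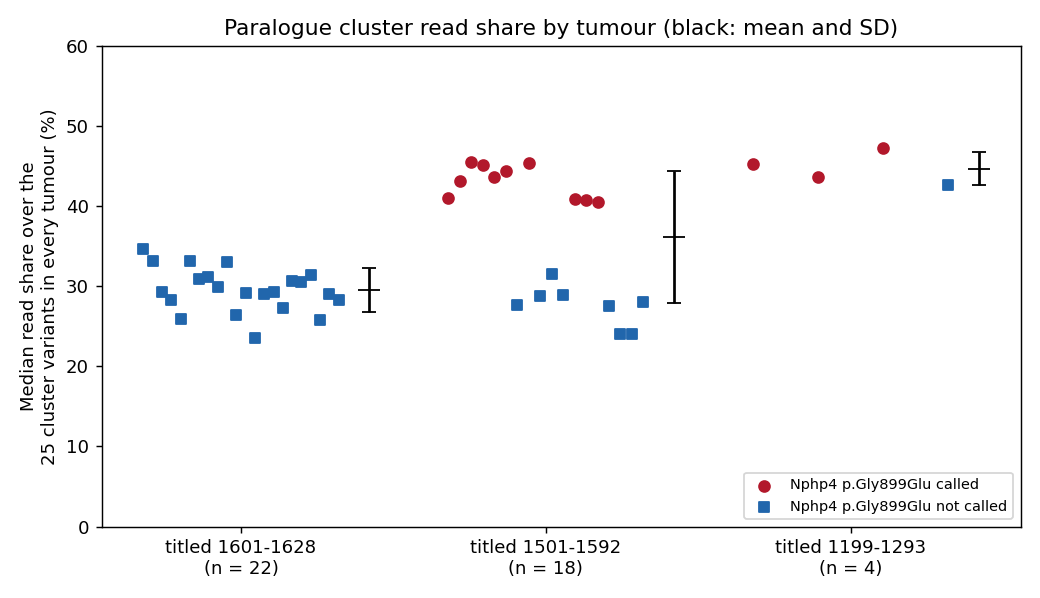
Median read share (percent) of each tumour over the 25 cluster variants called in every tumour, by title range, with the mean and SD in black and tumours with the Nphp4 change as red circles. All 13 Nphp4 carriers lie between 40.5% and 47.3%, and of the other 31 tumours 1 lies above the gap at 34.6% to 40.5%.

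The difference ran through nearly all 25 variants. In 24 of them the median was lower in tumours titled 1601-1628 than in those titled 1501-1592, with differences (1601-1628 minus 1501-1592) from -16.4 to 1.73 percentage points and a median of -8.08. The exception was an intergenic variant at 146892180, at 45.9% in 1601-1628, 44.2% in 1501-1592 and 40.85% in 1199-1293. It was also the exception among 24 of 25 that were lower in 1601-1628 than in 1199-1293. The variants share reads and copies, so 24 of 25 is not a count of independent observations.

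**Figure D5:**
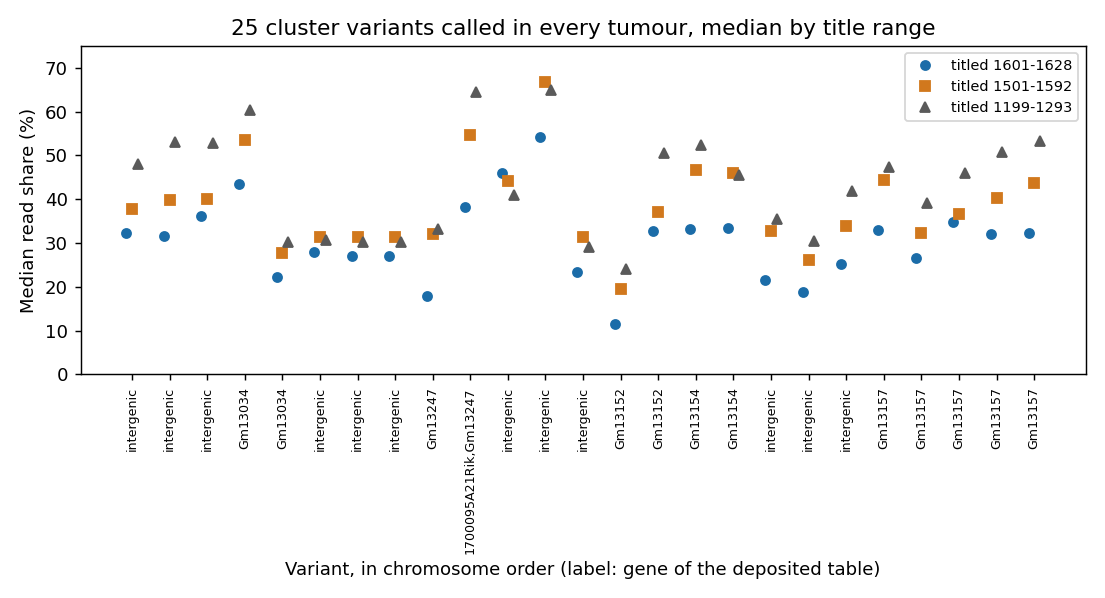
Median read share (percent) by title range of the 25 cluster variants called in every tumour, in chromosome order and labelled with the deposited table's gene. The 1601-1628 points lie below the 1501-1592 points in 24 of 25 variants, and variants differ among themselves from about the level of Gm13152 at 13% to the insertion at 58.5%.

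The level in the cluster went with the Nphp4 change, which lies 4.66 Mb beyond its last variant. The 13 tumours with p.Gly899Glu had cluster medians of 40.5% to 47.3% (median 43.6%). The 31 without it had 23.5% to 42.65% (median 29%), and tumour 5 was the only one of them above the gap. The proximal block went with the level less closely. Of its 12 carriers 9 lay above the gap, and tumour 14, with all 3 segments, lay below it at 28.8%. Of the 18 Tmem82 carriers 12 lay above. The gap and the Nphp4 comparison were chosen after the values had been seen, and they carry no test.

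Gm13154 was the one gene of chromosome 4 with a protein-altering variant in all 44 tumours (exact 95% interval 91.96 to 100%). Its p.Gln174Arg, at 147583197, was read at 23.03% to 41.4% (median 33.3%) in tumours titled 1601-1628, at 25.9% to 55.8% (median 45.9%) in 1501-1592, and at 45.3%, 45.7%, 49.5% and 45.05% in 1199-1293. All 22 tumours of the first range lay below the 4 of the last, and those titled 1501-1592 lay on both sides. In the 13 Nphp4 carriers it was 43.6% to 55.8% (median 48.9%), against 23.03% to 45.05% (median 32.3%) in the other 31. Its p.Ile39Met, at 147581328, was called in 41 tumours. It was read at 30.3% to 38.1% (median 33.9%) in 21 tumours titled 1601-1628, at 30.5% to 55.4% (median 47.8%) in 17 titled 1501-1592, and at 49.3%, 48.3% and 50.5% in 3 titled 1199-1293. Neither change reached 90% in any tumour.

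The neighbouring zinc finger genes showed similar carriage. In 2610305D13Rik the table listed p.Leu225Ter and p.Leu225Val on adjacent bases, at 147613577 and 147613578, in the same 39 tumours and at identical read shares in all 39. Read as 1 change of both bases, TTA, the only leucine codon from which single changes give a stop and a valine as listed, would become GGA, which encodes glycine, so the stop as annotated would not arise. The pair was read at 11.5% to 42.1% (median 22.9%) in 18 tumours titled 1601-1628, at 9.52% to 55.6% (median 29.4%) in 17 titled 1501-1592, and at 50.0%, 24%, 42.1% and 28.6% in 1199-1293. At a read share of at least 20% it was present in 30 tumours. Gm13157 p.Lys196Asn was called in 38 tumours, at 16.1% to 33.7% (median 26.7%) in 1601-1628, 23.6% to 49.7% (median 37.4%) in 1501-1592, and 48.4%, 45.8% and 41.75% in 1199-1293. Its p.Lys267Glu was called in 5.

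The rarer cluster changes were p.Leu235Pro of Gm13242 in 2 tumours at 23.1% and 33.3%, and p.Asp226His, which the table assigns to both Gm13139 and Gm13251, in 2 tumours at 9.38% and 10.5%. Carriage in the cluster could be compared between the ranges for a part of the variants only. The 25 called in all 44 tumours could not differ, and the 85 called in 2 to 5 tumours could not pass the test. Of the variants called in 4 or more tumours, 6 had no carrier titled 1601-1628, and 1 was called in tumours titled 1601-1628 only. The 1 variant that passed the test over all shared variants lay at 147298550, which the deposited table lists as intronic in Gm13152. In RefSeq that gene begins at 147443114, so the site lies outside it. The variant was called in 2 of 22 tumours titled 1601-1628 and in 11 of 18 titled 1501-1592 (Fisher's exact test, adjusted p = 0.00475).

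At the edge of the rule, 109 of the 778 variants were called in exactly 2 tumours, 28 of them in the cluster, with a median read share of 43.3%. The 667 private variants of chromosome 4, just outside the rule, had a median of 20.3%, and 100 of them lay in the cluster. Among the 203 shared variants that were neither in the cluster nor linked, 28 had a median of 90% or more, of which 13 were SNVs and 20 were in 2 to 5 tumours. Of the rare protein-altering changes on the proximal side, Foxe1, a forkhead transcription factor, lost 6 alanines (p.Ala171_Ala176del) in tumours 1 and 5, at 38.1% and 31.8% in that order. The deleted bases, in capitals after the base that precedes them at 46344691, are a repeat of alanine codons on the forward strand.
Foxe1 deletion: aGCCGCTGCCGCCGCCGCT

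A deletion of 97 bases in Ccne2, which encodes cyclin E2, was called at read shares of 7.66% in tumour 8 and 8.99% in tumour 2. It was annotated as a splice donor change. Olfr157 p.Lys304Arg was called in 5 tumours with a median of 4.24%.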

How the data were processed

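Exomes were captured with an Agilent SureSelect mouse design and variants were called with GATK on mm10, per the labels' protocols and the submitters' processing notes. The authors deposited 1 annotated table of 25823 rows whose cells hold a percent of reads for each tumour, or a dot. Another deposited column holds a count of tumours, which equalled the number of cells with a value in all 778 variants described. The caller's filters and the way the kidneys were used are unstated in these sources. The table gives no depth, so the precision of single values is unknown.

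Computed here were carriers, medians, segments (gaps of 2 Mb, at least 5 variants, carriage from 50%) and two-sided Fisher's exact tests with Benjamini-Hochberg adjustment at 0.05, with Python 3.11.15, pandas 2.3.3 and scipy 1.17.1. The test per variant was tested on simulated data. Rows with several alternate alleles (199) were left out. Intervals for counts of tumours are Clopper-Pearson. Protein-altering means missense, stop, frameshift, in-frame and essential splice variants as annotated. Gene spans, promoters and current symbols came from RefSeq (GRCm38.p6), which lists 16 of 16 promoter bases as the table does. Named were all genes with a shared protein-altering variant (at most 30 outside the cluster), listed genes with a shared variant, and Cdkn2a, Cdkn2b and Mtor. Results for 1 gene that this rule names are not reported here. The members, gene lists, segments and comparisons were chosen with earlier results of these data known, and the test per variant, the linked rule and the E-box search after seeing the data. The labels give nothing that tumours of a title range share beyond their numbers.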

Additional observations from a re-analysis of the deposited data

Results flagged for a closer look

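Private variants, called in 1 tumour, are outside the comparisons above, and 3 of the 50 listed genes carried a protein-altering one. Prdm2, a histone methyltransferase and tumour suppressor gene, had p.Lys871Thr in tumour 19 at a read share of 48.72%. Camta1, a transcription activator gene, had p.Ser617Arg in tumour 6 at 11.11%. Epha2, a receptor tyrosine kinase gene, had p.Ala228Asp in tumour 12 at 6.67%. Each rests on 1 tumour and has no replicate check. In the 5 groups of values checked, no tumour of a group of 4 to 10 stood apart from the others of its group.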

How the results depend on the processing

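Of the alternative values of the counts, tests and levels that answer a comparison, 51 stayed within their limits and 7 moved. The limits were a change of at most 1.5 times for a count, an adjusted p under 0.05 for a test, and less than the SD for a mean level. Within them, the carriers of segment 2 and of segment 3 fell from 9 to 6 with carriage from 75%. With a gap of 5 Mb the 11 segments became 5. In the cluster the mean per-tumour read share over all 211 variants was 26.9% in tumours titled 1601-1628; it was 28.5% with variants in over 22 tumours, 29.5% with variants in every tumour and 28.9% with means for medians. In tumours titled 1199-1293 it was 40.2%, against 43.4% and 44.7% under the first and second of these, and 39.6% to 40.6% when each of the 4 was left out in turn. With private variants included, 14 listed genes held a variant in place of 3. At a read share of at least 20%, 7 of 36 altered genes were left with 0 tumours: Ppcs, Olfr157, Hnrnpr, Calr4, Ccne2, Gm13139 and Gm13251. The cause of these shifts was not tested beyond what the settings themselves remove. The read share of segments by title range was not compared, since no tumour titled 1601-1628 carried the 3 large segments. No paired analysis was possible because each mouse gave 1 tumour. Depth is unknown, so low read shares and missing calls cannot be weighed by it.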

Other observations

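Pairs of adjacent bases were listed as separate variants at 11 places on chromosome 4, and in all 11 both bases had the same carriers and the same read share in every tumour. Besides 2610305D13Rik, the pairs with a protein-altering member were in Ppcs, where p.Ala14Pro and a synonymous change of p.Pro13 were called in the same 6 tumours. An intergenic pair of the cluster, at 146240257 and 146240258, was called in all 44.

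A Fam154a intronic deletion of 8 bases was called in 0 of 22 tumours titled 1601-1628 and 6 of 18 titled 1501-1592, and intergenic variants at 75451943 and 136463060 had the same counts (Fisher's exact test, two-sided, adjusted p = 0.0265 for each over all shared variants). A Ccdc30 intronic insertion of 8 bases was called in 13 tumours, 11 of the 22 titled 1601-1628 and, among those titled 1501-1592, tumours 19 and 20. It did not pass the same test, and 0 variants of chromosome 4 passed with more carriers titled 1601-1628.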
